A study of Saccharomyces cerevisiae BY4741 with 6 samples.

Results

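The genes described here are *GCN4* and the 9 genes *GCN2*, *GCN1*, *GCN20*, *GCN3*, *GCD7*, *GCD1*, *GCD2*, *GCD6* and *GCD11*, whose products set how well its messenger RNA is translated. They were chosen by symbol and are 10 of the 5449 genes measured, each with 1 probe set on the array. The transcripts came from 3 cultures treated with 10 mg/mL neomycin sulfate for 4 h and from 3 untreated cultures incubated for the same time, all of the haploid strain BY4741 in rich medium (YPD) at 30 °C. BY4741 has mating type a and lacks *LEU2*, *MET17* and *URA3* and part of *HIS3*, so that cells of both conditions took leucine, methionine, histidine and uracil from the medium. With an Affymetrix Yeast Genome 2.0 array for every culture, there are 6 arrays and n = 3 per condition. Values are GCRMA signals on the log2 scale, and a log2 fold change is the mean with neomycin minus the untreated mean.

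Gcn4 is the transcription factor of general amino acid control, the program by which yeast raises the enzymes of many amino acid pathways at once. Its control lies mostly in translation. Short upstream reading frames in the leader of its messenger RNA keep ribosomes from the Gcn4 start codon in fed cells, and when uncharged tRNA accumulates, the kinase Gcn2 phosphorylates the initiation factor eIF2, which then blocks its own exchange factor eIF2B and lets more scanning ribosomes reach that codon. The arrays measure transcripts, so neither this step nor the Gcn4 protein is seen in them. Because bulk RNA was measured, fewer cells with a transcript and less of it per cell cannot be told apart.

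The array medians over the 5716 probe sets ran from 8.84 to 8.93, and arrays correlated across genes, which are not independent replicates, with Pearson's r from 0.979 to 0.993. Of the genes absent from BY4741, *LEU2* had the highest mean over the arrays, 4.68, which is taken as a mark of background, and the lowest value of any of the 10 genes on any array was 9.05. The 5 genes specific to a cells had means over the arrays from 10.87 to 12.50. Those of the 4 genes specific to α cells ran from 3.48 for *MF(ALPHA)1* to 8.05 for *SAG1*, which codes for α-agglutinin.

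*GCN4* messenger RNA did not differ detectably between the conditions. It read 12.84, 12.88 and 12.94 on the arrays of neomycin-treated cells, against 12.75, 12.93 and 12.85 on those of untreated cells. The groups overlap, and all 6 values lie within 0.20 of each other. The means were 12.89 ± 0.05 with neomycin and 12.84 ± 0.09 without (SD, n = 3 each), a 1.03-fold difference with a 95% interval from 0.877 to 1.21 (log2 fold change 0.04, SE 0.10, limma adjusted p = 0.909). An exact 2-sided permutation test of 3 arrays against 3 gave p = 0.6, where 0.1 is the smallest p it can give. The value was −0.01 without untreated replicate 1 and positive under the other 13 alternatives, and the adjusted p, where the alternative gave one, ran from 0.780 to 0.997. The 5 genes whose signals followed *GCN4* most closely over the 6 arrays were *BCK2*, *PMD1*, *ATP14*, *PIB1* and *KAR9*, with Pearson's r from 0.962 to 0.991. Since *GCN4* spans so narrow a range and the arrays share their normalisation, this likeness is given as a description.

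With p-values adjusted over all genes by the Benjamini-Hochberg method, limma called 0 of the 10 genes higher and 0 lower at a threshold of 0.05. Of all genes it called 0.514%, made up of 0.422% higher and 0.0918% lower. Without adjustment, at a p under 0.05, the count was again 0 in both directions, against 5.05% and 8.33% of all genes, and by the criteria of the methods, which ask for a ratio of mean signals no lower than 1.7 or no higher than 0.6 and a regularised p up to 0.05, it was 0 as well, against 1.45% induced and 0.367% repressed. The log2 fold changes ran from −0.17 for *GCD1* to 0.04 for *GCN20*, 3 above and 7 below 0, where 37.9% of all genes lay above 0. Their median was −0.08, beside −0.05 over all genes. The 95% intervals of the 10 genes all lie between 0.746-fold and 1.28-fold, so that they leave out both ratios of the methods for each gene.

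**Figure D1:**
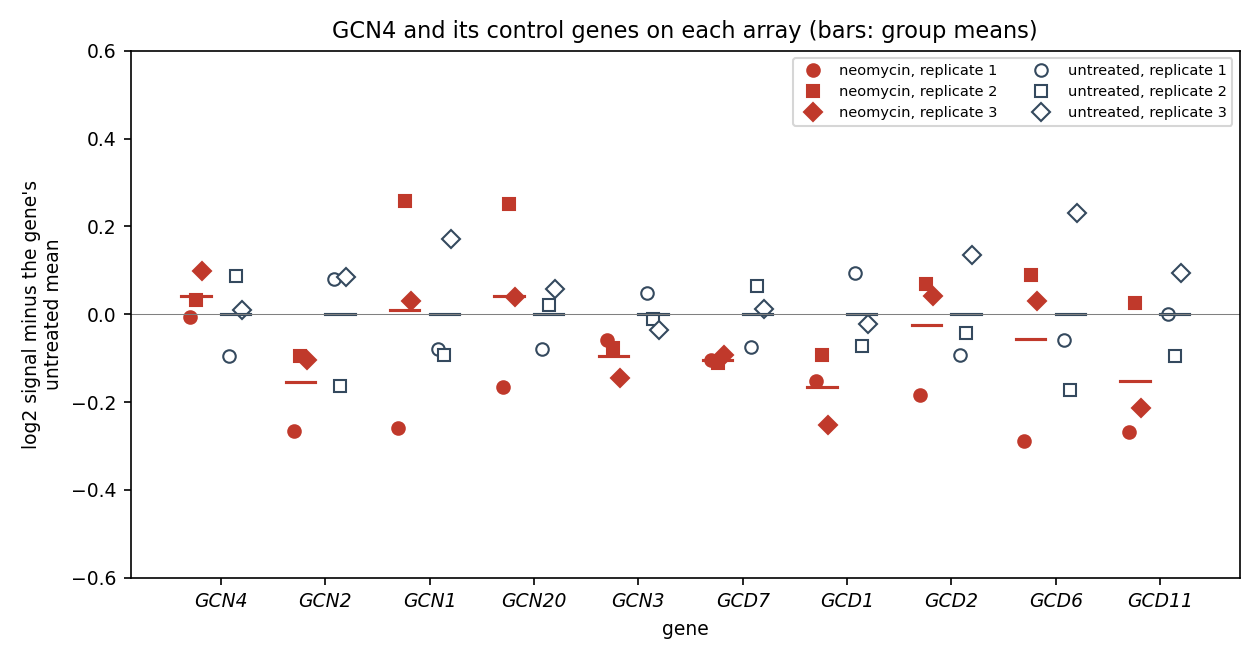
Log2 signal of each gene on each array minus the gene's untreated mean (vertical axis), with the 3 neomycin arrays as filled red points left of the 3 untreated arrays as open points, and bars for the group means (n = 3 each). The neomycin points of *GCN3*, *GCD7* and *GCD1* lie below their untreated points, and for the other genes the groups overlap.

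The kinase branch comprises Gcn2 itself and the pair Gcn1 and Gcn20, which bind ribosomes and pass the signal of uncharged tRNA to the kinase. *GCN2* read 9.05, 9.22 and 9.22 with neomycin, against 9.40, 9.15 and 9.40 in untreated cells. Untreated replicate 2 lay below neomycin replicates 2 and 3, so that the groups overlap, and the log2 fold change was −0.15 (SE 0.11, 0.899-fold, 95% interval 0.749 to 1.08, adjusted p = 0.629). *GCN1* gave 10.59, 11.11 and 10.88 with neomycin, against 10.77, 10.76 and 11.02 without, a log2 fold change of 0.01 (SE 0.15, 1.01-fold, interval 0.790 to 1.28, adjusted p = 0.987). Both the lowest and the highest of its 6 values were on neomycin arrays. *GCN20*, an ABC protein that needs Gcn1 to reach the ribosome, read 11.02, 11.44 and 11.22 with neomycin, against 11.11, 11.21 and 11.24 without (0.04, SE 0.13, 1.03-fold, interval 0.840 to 1.26, adjusted p = 0.928). It had the same order within the treated cultures, replicate 1 lowest and replicate 2 highest, and over the 6 arrays the signals of *GCN1* and *GCN20* had r = 0.917. This likeness was not particular to the pair, since *GCN1* had r = 0.919 with *GCD2* and 0.907 with *GCD6*.

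eIF2B is the exchange factor that reloads eIF2 with GTP, and it is the point at which phosphorylated eIF2 acts. Its regulatory subunits are Gcn3 (α), Gcd7 (β) and Gcd2 (δ), which sense the phosphorylation, and its catalytic subcomplex is formed by Gcd1 (γ) and Gcd6 (ε), of which Gcd6 has the exchange activity. All 5 genes had values below 0, as had 3383 of the 5449 genes measured, with a median of −0.09 for the 5 genes and none past the test. *GCN3*, the 1 dispensable subunit, read 9.90, 9.88 and 9.82 with neomycin, against 10.01, 9.95 and 9.92 without. Each treated array lay below each untreated array, by as little as 0.02 (log2 fold change −0.09, SE 0.09, 0.937-fold, interval 0.806 to 1.09, adjusted p = 0.730). *GCD7* read 9.79, 9.78 and 9.80 with neomycin, against 9.82, 9.95 and 9.90 without, again with no overlap (−0.10, SE 0.10, 0.931-fold, interval −0.32 to 0.12 on the log2 scale, adjusted p = 0.704).

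*GCD2*, the δ subunit, gave 9.29, 9.54 and 9.51 with neomycin, against 9.38, 9.43 and 9.61 without, and its groups overlap (−0.02, SE 0.12, 0.983-fold, interval 0.815 to 1.19, adjusted p = 0.960). Of the catalytic pair, *GCD1* read 9.88, 9.94 and 9.78 with neomycin, against 10.12, 9.96 and 10.01 without. Here too the treated arrays lay below the untreated ones, and its log2 fold change of −0.17 was the most negative of the 10 genes (SE 0.10, 0.892-fold, interval 0.757 to 1.05, adjusted p = 0.539). *GCD6* read 9.81, 10.19 and 10.13 with neomycin, against 10.04, 9.93 and 10.33 without, with wide overlap (−0.06, SE 0.15, 0.962-fold, interval 0.758 to 1.22, adjusted p = 0.918).

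*GCN3*, *GCD7* and *GCD1* are thus 3 of the 10 genes with each neomycin array below each untreated array, and 0 had the opposite order, where 12.8% of all genes lay below, 5.58% above and 18.4% in either order. For each of the 3 genes the exact 2-sided permutation test gave p = 0.1, the smallest it can give. Any gene whose groups do not overlap takes this value, so it adds nothing to the order itself. This order depends on how the arrays are scaled. After the signals were quantile-normalised again *GCD1* alone kept it, and once the array medians were set equal 0 of the 10 genes did, while the log2 fold changes of the 3 genes stayed below 0 under both scalings (−0.14 to −0.06).

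*GCD11* codes for eIF2γ, the subunit that binds GTP and carries the initiator tRNA. It read 11.65, 11.94 and 11.70 with neomycin, against 11.92, 11.82 and 12.01 without, and neomycin replicate 2 lay within the untreated range (log2 fold change −0.15, SE 0.12, 0.900-fold, interval 0.746 to 1.08, adjusted p = 0.640). The other subunits of eIF2 are not among the 10 genes. *SUI2*, which codes for eIF2α, the substrate of Gcn2, read 11.01, 11.18 and 10.90 with neomycin, against 11.31, 11.09 and 11.30 without (−0.21, SE 0.12, adjusted p = 0.494). For *SUI3*, eIF2β, the readings were 11.45, 11.72 and 11.60 with neomycin and 11.60, 11.62 and 11.75 without (−0.07, SE 0.11, adjusted p = 0.855). Groups overlap for both, and the value of *SUI3* was 0.00 without neomycin replicate 1.

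**Figure D2:**
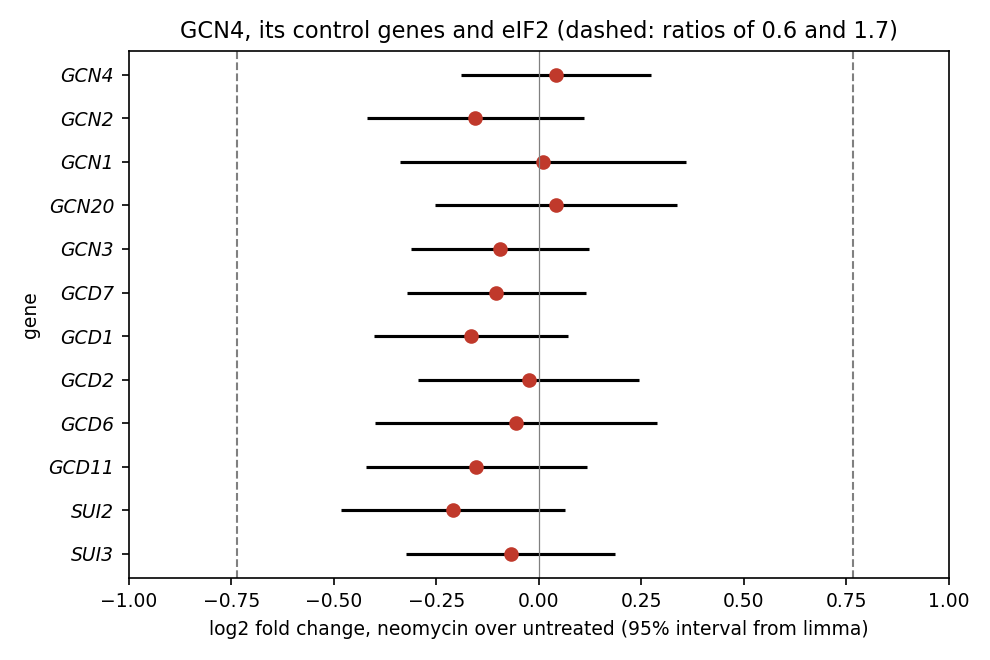
Log2 fold change of neomycin over untreated (horizontal axis) for *GCN4*, its 9 control genes and the eIF2 genes *SUI2* and *SUI3*, as points with 95% intervals from limma (n = 3 arrays per condition). Each interval crosses 0 and lies inside the dashed lines at the ratios of 0.6 and 1.7.

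Cultures of the same condition also differed. Set against each gene's untreated mean, the 10 genes had medians of −0.18, 0.03 and −0.03 in the 3 treated cultures, against −0.07, −0.06 and 0.07 in the 3 untreated ones, by replicate number. The median of all genes on the same arrays was −0.11, 0.03 and −0.05 with neomycin and −0.01, −0.01 and 0.02 without. Neomycin replicate 1 was the lowest of the 3 treated arrays for *GCN4*, *GCN2*, *GCN1*, *GCN20*, *GCD2*, *GCD6* and *GCD11*, and without it the median of the 10 genes was −0.02, with 0 of them called and adjusted p-values of at least 0.591, where 2.18% of all genes were called higher and 0.422% lower. Of the 45 pairs that the 10 genes form, *GCD2* with *GCD6* had the highest correlation over the arrays (r = 0.941) and *GCN4* with *GCD1* the lowest (r = −0.775), each over 6 arrays that share their normalisation.

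Other factors that bring ribosomes to the start codon were also measured. Of 7 genes for the ternary complex and start codon recognition 0 passed the test over all genes, 3 had an unadjusted p under 0.05, each of them with a lower mean, and 6 had values below 0, with a median of −0.21. Over all genes, 3383 of 5449 had values below 0. *SUI1*, which codes for eIF1, read 12.17, 11.84 and 11.94 with neomycin, against 12.27, 12.25 and 12.41 without (−0.32, SE 0.12, adjusted p = 0.318). *CDC123*, an assembly factor of eIF2, read 8.07, 8.13 and 8.20 with neomycin, against 8.34, 8.47 and 8.53 without (−0.31, SE 0.10, adjusted p = 0.274). *TIF5*, eIF5, the factor that triggers GTP hydrolysis on eIF2, read 10.40, 10.58 and 10.52 with neomycin, against 10.87, 10.59 and 10.87 without (−0.28, SE 0.12, adjusted p = 0.364). These 3 genes had treated arrays below all untreated arrays, as had 12.8% of all genes, and 8.33% of all genes had a lower mean at an unadjusted p under 0.05. The order was one that *CDC123* and *TIF5* kept under both other scalings and *SUI1* did not.

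For eIF3, the complex that holds the scanning ribosome and takes part in reinitiation after the upstream frames of *GCN4*, all 6 subunit genes had values below 0, from −0.23 to −0.05, with a median of −0.13 and 0 past the test (1 lower at an unadjusted p under 0.05). Over all genes, 3383 of 5449 had values below 0 and 8.33% were lower at an unadjusted p under 0.05. Of the eIF3 genes, *PRT1* (eIF3b) had the largest value, −0.23 (SE 0.10, adjusted p = 0.368), followed by *NIP1* (−0.17), *RPG1*, also called *TIF32* (−0.16), and *TIF35* (−0.10). Of 5 genes of the ribosomal P-stalk, the part of the ribosome that activates Gcn2 when ribosomes stall, 0 passed and the values ran from −0.03 to 0.03, the narrowest range of the 8 lists plotted by gene, with intervals from 0.846-fold to 1.21-fold. Among 7 modulators of Gcn2 and of eIF2α phosphorylation 0 passed (1 lower at an unadjusted p under 0.05, as were 8.33% of all genes), with a median of 0.04 that was −0.07 without neomycin replicate 2. *SNF1*, the AMP-activated kinase, had a value of −0.26 (SE 0.11, adjusted p = 0.373), *GIR2*, which binds Gcn1, −0.19, *GLC7*, the type 1 phosphatase that acts on eIF2α, 0.16, and *TAP42*, a phosphatase partner under TORC1, 0.11.

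Gcn4 is a short-lived protein, marked for destruction by the kinases Pho85 and Ssn3 and by the ubiquitin ligase SCF with Cdc4. Of 9 genes of this turnover 0 passed the test over the 6 arrays, 1 was higher at an unadjusted p under 0.05, as were 5.05% of all genes, and the median was −0.06. The one higher gene was *PCL5*, the cyclin that directs Pho85 to Gcn4 and is itself a target of Gcn4. It read 9.22, 9.92 and 9.88 with neomycin, against 9.11, 8.88 and 9.20 without. The groups do not overlap, an order that 5.58% of all genes had, with neomycin replicate 1 just above the untreated range (log2 fold change 0.61, SE 0.20, 1.52-fold, interval 1.12 to 2.08, adjusted p = 0.273). Without that culture, the treated one nearest to the untreated arrays, *PCL5* passed the test (0.83, SE 0.13, adjusted p = 0.0232). When any other array was left out, its limma adjusted p ran from 0.335 to 0.578. *SSN8*, *CDC34* and *SSN3* had values of 0.19, 0.16 and −0.14.

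Of 12 genes for coactivators that Gcn4 recruits, in SAGA, Mediator and SWI/SNF and the bridging factor Mbf1, 0 passed and 0 had an unadjusted p under 0.05, with a median of 0.02. The SAGA genes *ADA2*, *NGG1* and *SPT20* had the largest values, 0.43 (SE 0.23), 0.31 (SE 0.15) and 0.30 (SE 0.23), and *MED2* of Mediator had −0.20 (SE 0.10). For *ADA2* the readings were 8.30, 8.53 and 8.38 with neomycin and 7.38, 8.34 and 8.18 without, and untreated replicate 1 was the lowest of them.

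**Figure D3:**
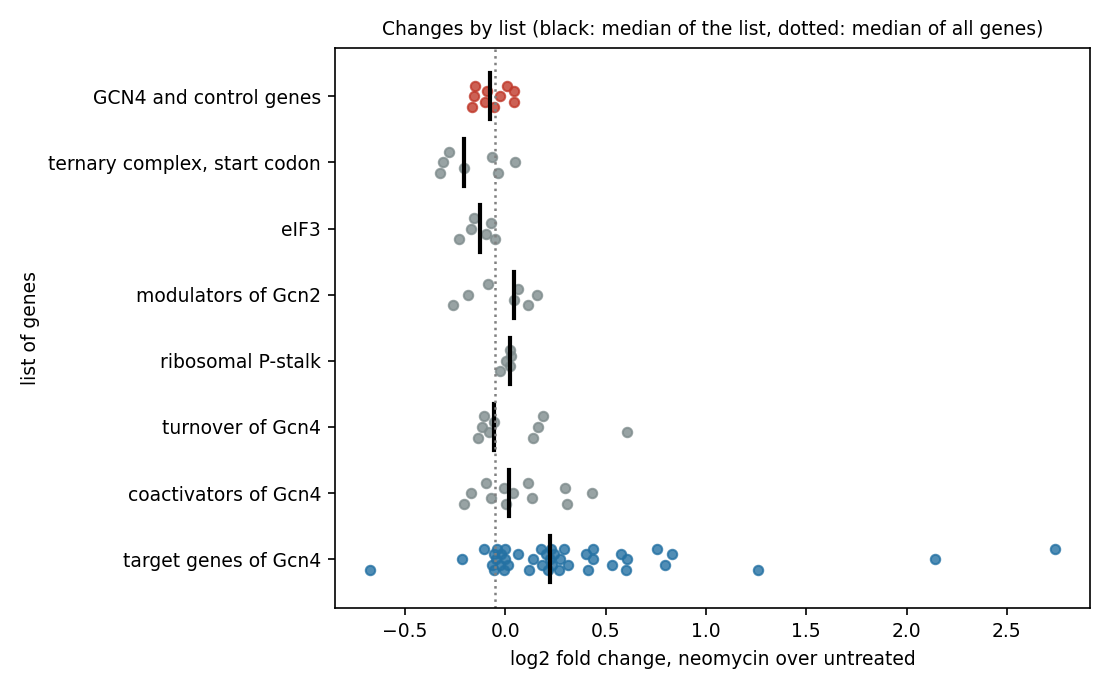
Log2 fold change of neomycin over untreated (horizontal axis) for each measured gene of the 8 lists, with the median of each list in black and the median of all genes, −0.05, as a dotted line. The points of *GCN4* and its control genes lie between −0.17 and 0.04, while those of the Gcn4 targets reach 2.74.

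The arrays also measured genes known as targets of Gcn4, and whether Gcn4 accounts for their values was not tested. Of 43 measured targets from textbook knowledge, 30 had values above 0 and 37 lay above the median of all genes, and the median of the list was 0.22, beside −0.05 over all genes. In 15 of them (34.9%) every neomycin array lay above every untreated array and in 1 (2.33%) below, where 5.58% and 12.8% of all genes did. With quantile normalisation these counts were 17 and 0, and with centred arrays 18 and 1. In limma 0 passed an adjusted p under 0.05 over the 6 arrays, 16 had an unadjusted p under 0.05 with a higher mean and 1 with a lower one, and 6 met the ratio criteria of the methods for induction. Of all genes, 5.05% and 8.33% had such an unadjusted p with a higher and a lower mean, and 1.45% met the criteria for induction. Without neomycin replicate 1 the number of higher targets at an adjusted p under 0.05 was 10, where 2.18% of all genes (119, against 23 over the 6 arrays) were called higher. When any other array was left out instead, the number of higher targets was 0 or 1. The members of this list were chosen with the results of these arrays known, so its counts are a description.

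The 4 targets with the largest values were 3 genes of arginine synthesis and 1 of lysine synthesis. *ARG1*, the argininosuccinate synthetase, read 10.44, 11.41 and 11.47 with neomycin, against 7.72, 7.98 and 9.39 without (2.74, SE 0.45, adjusted p = 0.05004, just above the threshold). *ARG3*, the ornithine carbamoyltransferase, read 6.66, 7.72 and 8.23 with neomycin, against 5.13, 4.89 and 6.17 without (2.14, SE 0.44, adjusted p = 0.0875). Its untreated replicates 1 and 2 lay close to the background mark of 4.68, which limits how well its log2 fold change is measured. *ARG4*, the argininosuccinate lyase, gave 10.87, 11.77 and 11.66 with neomycin, against 10.10, 10.20 and 10.22 without (1.26, SE 0.22, adjusted p = 0.0544). In each of these the groups do not overlap, and neomycin replicate 1 is the treated culture nearest to the untreated ones. *LYS1*, the saccharopine dehydrogenase, read 8.74, 9.19 and 9.18 with neomycin, against 8.10, 8.24 and 8.28 without (0.83, SE 0.14, adjusted p = 0.0535), while the median of the 7 lysine targets was −0.02.

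Outside arginine synthesis the 37 remaining targets had a median of 0.20, beside −0.05 over all genes. Without overlap, 10 of them (27.0%) lay above and 1 (2.70%) below, where 5.58% and 12.8% of all genes did. By pathway, the medians were 1.03 for 6 arginine genes, 0.32 for 4 of histidine, 0.23 for 7 aromatic, 0.20 for 7 branched-chain, 0.14 for 4 of the aspartate family, −0.02 for 7 of lysine and −0.01 for 8 other targets. Of the lysine genes 5 had values below 0, as had 5 of the 8 other targets. In the histidine and branched-chain pathways, as in that of arginine, all measured targets had values above 0. Named after their values were seen, *HOM3*, the aspartate kinase (0.60, SE 0.13), *HIS4*, a histidine enzyme long used as a reporter of Gcn4 (0.57, SE 0.19), and *ARO3*, a DAHP synthase (0.53, SE 0.16), had adjusted p-values of 0.120, 0.286 and 0.243 and, when neomycin replicate 1 was left out, of 0.0328, 0.0475 and 0.0234. For each of these genes that culture was the treated one nearest to the untreated arrays. Leaving out any other array gave 0 or 1 targets called higher. The 1 target with the opposite order was *SNO1*, of vitamin B6 metabolism, which read 6.33, 5.97 and 6.37 with neomycin, against 6.96, 7.19 and 6.55 without (−0.68, SE 0.18, adjusted p = 0.197).

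Set side by side on the same arrays, *GCN4* and its targets took different values. Relative to the untreated mean, *GCN4* stood at −0.01, 0.03 and 0.10 in the 3 treated cultures, against −0.10, 0.09 and 0.01 in the 3 untreated ones. The median of the 37 targets outside arginine was −0.03, 0.36 and 0.27 with neomycin, against −0.04, 0.00 and 0.07 without, so that neomycin replicate 1 lay among the untreated arrays. The 6 arginine targets had medians of 0.62, 1.26 and 1.27 with neomycin, against −0.06, −0.23 and 0.17 without.

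**Figure D4:**
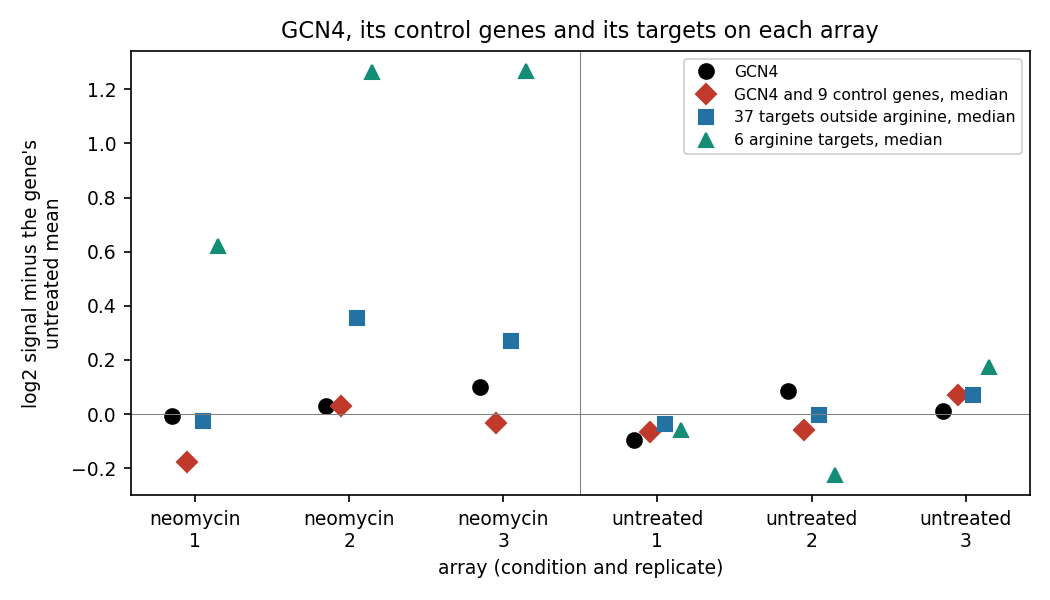
Log2 signal minus the gene's untreated mean (vertical axis) on each of the 3 neomycin and 3 untreated arrays (horizontal axis), for *GCN4*, for the median of *GCN4* and its 9 control genes, and for the medians of 37 Gcn4 targets outside arginine synthesis and of 6 arginine targets. *GCN4* stays between −0.10 and 0.10 on all arrays, while the arginine targets lie at 0.62 to 1.27 with neomycin.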

How the data were processed

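Total RNA of 3 neomycin-treated and 3 untreated cultures was hybridised to Affymetrix Yeast Genome 2.0 arrays, and the authors converted the intensities with GCRMA, which adjusts background, normalises between arrays and summarises probes. The deposited values are log2 signals, from 2.22 to 14.31, and work started from them. Which GCRMA release was used is not stated in the sources. As arrays give no read depth, precision is limited by their number.

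Of 5716 probe sets, 5498 name 1 gene in the platform annotation, 0 name several and 218 name none. For the 47 genes with several, the probe set with the highest mean was kept, giving 5449 genes. Listed symbols were matched directly or, for *TIF32* and *MED15*, through RefSeq gene IDs (arrays: *RPG1* and *GAL11*), and 2 listed targets were not analysed here.

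Conditions were compared with limma 3.58.1 in R 4.3.3 (lmFit, eBayes, 4.03 prior degrees of freedom, 2-sided, Benjamini-Hochberg over all genes, threshold 0.05), checked on simulated data. The ratio criteria were rebuilt with a Cyber-T test (window of 100 genes, confidence 10). The alternatives were a replicate block, quantile normalisation, median centring, a filter on the dimmest 25% of genes, the mean of probe sets, leaving out each array, an intensity trend, a robust prior and the ratio criteria. Named genes were the 10 genes, *SUI2* and *SUI3*, up to 4 genes with the largest values in each list, the 5 genes most like *GCN4* and the deleted genes. The members and lists were chosen with earlier results of these data known. A search of promoters for Gcn4 sites was planned and not run, since no sequences were used here.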

Additional observations from a re-analysis of the deposited data

How the results depend on the processing

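None of the 10 genes was called under any of the 14 alternatives, the lowest adjusted p being 0.348 (*GCD11* without neomycin replicate 2). In 12 of the 140 pairs of a gene and an alternative the sign differed from that of the 6-array fit. The median of the 10 genes ran from −0.11 to −0.02 when 1 array was left out and that of the targets from 0.13 to 0.35.
Over all genes, 23 were higher and 5 lower. With the replicate number as a block these were 0 and 0 (284 and 378 at an unadjusted p under 0.05). No label says that a number marks a shared batch, and deviations from the group means of same-numbered cultures correlated with r = −0.00, −0.38 and 0.44. Neomycin replicates 1, 2 and 3 correlated best with untreated replicates 2, 1 and 3 (0.398, 0.396 and 0.443), and the remaining pairs lay near or below 0. The numbers were therefore not taken to pair the cultures. No label explains this match, whether cultures were paired in another way was not tested, and the main fit took them as unpaired. The higher genes numbered 50 after quantile normalisation, 42 with centred arrays and 40 without the dimmest 25% of genes. An intensity trend gave 48 higher and 14 lower, the ratio criteria 79 and 20. Leaving out 1 array gave 0 to 119 higher and 0 to 23 lower genes, most without neomycin replicate 1.
Of the 43 targets, 0 were higher over the 6 arrays, 4 after quantile normalisation, with centred arrays or without the dimmest 25% of genes, 5 with an intensity trend, 6 by the ratio criteria and 0 to 10 when 1 array was left out. The filter on the dimmest genes removed *ARG3* from the targets, so the count under that filter is not out of 43. *PCL5* gave the single call among the 9 genes of Gcn4 turnover (0 to 1 when 1 array was left out). The cause of these shifts was not tested.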

Other observations

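Genes near this pathway that were taken up after their values were seen included 2 other genes named for general control, *GCD10* and *GCD14*, which code for the tRNA adenosine methyltransferase that initiator tRNA depends on. *GCD10* read 9.70, 9.57 and 9.74 with neomycin, against 10.01, 10.02 and 10.18 without (log2 fold change −0.40, SE 0.10, limma adjusted p = 0.181). *GCD14* read 9.04, 9.03 and 9.02 with neomycin, against 9.45, 9.19 and 9.54 without (−0.36, SE 0.12, adjusted p = 0.274). Both had treated arrays below all untreated arrays under the deposited scaling, after quantile normalisation and with centred arrays, and neither passed the test. Of all 5449 genes, 696, 550 and 514 had this order under the same scalings.

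Of 10 other regulators of the target genes, 0 passed the adjusted test in limma and 2 had a higher mean at an unadjusted p under 0.05, where 5.05% of all genes did. Both code for GATA factors of nitrogen control. *GAT1*, an activator, read 8.85, 9.10 and 9.09 with neomycin, against 8.17, 8.46 and 8.26 without (0.71, SE 0.12, 1.64-fold, adjusted p = 0.0536). *GZF3*, a repressor of the same family, read 8.55, 8.88 and 8.65 with neomycin, against 8.38, 8.49 and 8.22 without (0.33, SE 0.13, adjusted p = 0.338). The other GATA factors on the list, *GLN3* and *DAL80*, had values of 0.31 (adjusted p = 0.385) and −0.18, with *DAL80* below the background mark of 4.68. Of the regulators that act on arginine genes, among them the general factor Mcm1 and the inositol polyphosphate kinase Arg82, *ARG80*, *ARG81*, *ARG82* and *MCM1* gave values of 0.02, −0.15, −0.32 and −0.04, the adjusted p lying between 0.461 and 0.972.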
